A study of Capra hircus with 29 samples.

Results

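Oocytes from large follicles (HLO) were compared with oocytes from small follicles (HSO) of the same high fertility goats, to see which transcripts differ between follicles of a late and an early stage. All goats were of the Ji'ning grey breed, a prolific breed, and the labels name no treatment agent or engineered allele. The labels define high fertility by births of more than 3 kids and low fertility by births of fewer than 2, whereas the methods of the study count litters at either limit as well. There were 5 HLO samples (replicates 1 to 5) and 4 HSO samples (replicates 1, 3, 4 and 5), and each sample held a few oocytes taken from a pool of all oocytes of that follicle class. Which goats gave the oocytes of a sample is unknown and the labels give no age, so the p-values below measure the spread between portions of pooled oocytes and not the spread between goats. Oocytes from medium follicles of the same goats (HMO, 5 samples) and from large and small follicles of low fertility goats (LLO and LSO, 5 samples each) were used as further values. Of the 21343 genes in the table, 8175 exceeded 0.5 FPKM (fragments per kilobase of exon, scaled to the mapped fragments of the library) in at least 4 of the 9 HLO and HSO samples and were tested. Of these, 5841 exceeded the limit in all 9 samples and 432 in exactly 4, whereas 463 further genes exceeded it in exactly 3 and were left out. The remaining genes included 5471 that were listed at 0 in all 9 samples.

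An oocyte grows inside its follicle while it is arrested in the first meiotic prophase, and it stores messenger RNAs for the completion of meiosis and for the embryo before its own genome is active. Transcription slows and then stops when the oocyte is fully grown, so the store is later changed mostly by translation, polyadenylation and decay. During growth the oocyte also secretes the zona pellucida and the factors GDF9 and BMP15, which act on the granulosa cells around it, and it multiplies its mitochondria, which carry their own small genome.

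The samples carried the transcripts that define an oocyte. Of 15 oocyte markers in the table, 13 were tested, and their summed level was 1718 to 6709 FPKM in HLO and 2061 to 11087 FPKM in HSO. Of 19 granulosa cell markers 3 were tested, with a sum over all 19 of 25.7 to 44.3 FPKM in HLO and 27.8 to 39.2 FPKM in HSO. The summed levels were 24.9 to 61.1 and 28.5 to 87.7 FPKM for 12 theca and stroma markers, and they stayed under 10 FPKM in every sample for the cumulus cell and the endothelial markers. None of the 13 leukocyte and blood cell markers was tested, and their sum was 0.355 to 1.29 FPKM. The FPKM of a sample added up to 376899 to 449354, and 7102 to 8452 genes exceeded 0.5 FPKM. The table holds no read counts, so the depth behind a single value is unknown and no counting interval is given. In pooled samples, a different makeup of the pool and less RNA of a kind per oocyte cannot be told apart.

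Oocytes from large and small follicles were not separated along the main axes of the data. In a principal component analysis of log2(FPKM + 1), the first component held 67.9% of the variance of the tested genes and the second 8.86%. HLO replicates 1 and 5 and HSO replicates 1 and 5 lay at the positive end of the first component, with scores from 31.7 to 72.1. HLO replicates 2, 3 and 4 and HSO replicate 3 lay at the negative end, from -56.9 to -33.3, with HSO replicate 4 between them at -7.91. The score averaged -9.06 ± 52.1 over the HLO samples (SD, n = 5) and 11.3 ± 52.6 over the HSO samples (SD, n = 4). The exact two-sided permutation test over the 126 assignments of the labels gave p = 0.556 for the first component (Benjamini-Hochberg adjusted p = 0.926 over 5 measures) and p = 0.984 for the second. The same exact test gave p = 0.341 for the sum of FPKM, p = 0.548 for the number of genes over the limit and p = 0.786 for the distance of a sample to the mean of its group.

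**Figure D1:**
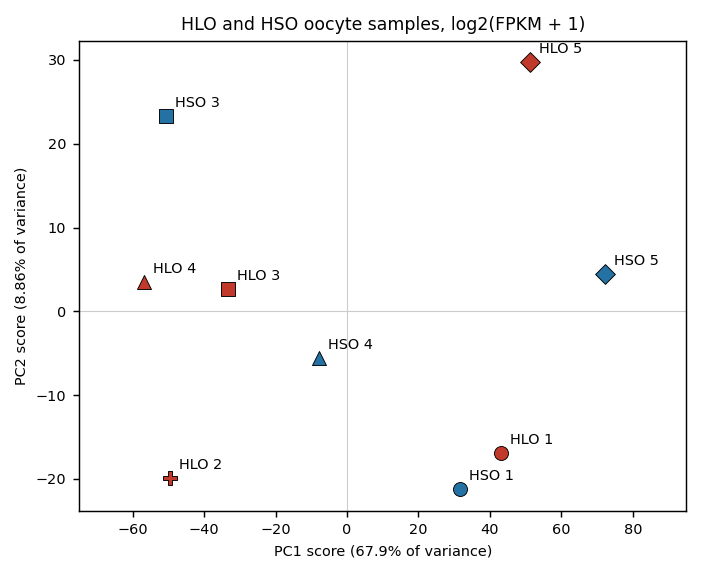
Scores of the 5 HLO samples (red) and 4 HSO samples (blue) on the first 2 principal components of log2(FPKM + 1) over the 8175 tested genes, with 1 point and label per sample and 1 shape per replicate number. The first component, 67.9% of the variance, spread both groups from its negative to its positive end and did not separate red from blue.

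The genes at the ends of this component, which were chosen after their values were seen, show how wide the spread within a group was. HYLS1, a centriole and cilium protein, was at 220.3, 18.6, 28.7, 15.4 and 384 FPKM in HLO replicates 1 to 5 and at 205, 17.8, 49.6 and 421 FPKM in HSO replicates 1, 3, 4 and 5. OAT, the ornithine aminotransferase of mitochondria, was at 33.4, 1.45, 4.09, 2.42 and 82.5 FPKM in HLO and at 20.6, 5.83, 7.3 and 134 FPKM in HSO. In both genes replicates 1 and 5 of either group were over the other samples. At the opposite end, TMSB4X, which codes for the actin-binding thymosin beta 4, was at 0, 9630.5, 4765, 2579 and 0 FPKM in HLO and at 5095, 1966, 2417 and 0 FPKM in HSO, so that it was listed at 0 in 3 samples of the 2 groups and among the abundant transcripts in the others. Samples that share a replicate number deviated from their group means together, with correlations across genes of 0.434, 0.488, 0.505 and 0.713 for numbers 1, 3, 4 and 5. The number was therefore also used as a block, a fit that compares HLO with HSO within each number and drops HLO replicate 2, which has no partner here. Some unlike numbers went together as closely, such as HLO replicate 4 with HSO replicate 3 (0.621).

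No gene passed the test of HLO against HSO after adjustment for the number of genes. By limma's moderated test on log2(FPKM + 1) with Benjamini-Hochberg adjustment, 0 of 8175 genes (0%) had an adjusted p under 0.05, and the smallest adjusted p was 1. An unadjusted p under 0.05 was found for 96 genes (1.17%), 33 of them higher in HLO (0.404%) and 63 higher in HSO (0.771%). A limit of 0.05 lets through a share of 0.05 of the genes when none differs, and 1.17% is below that share. After scaling by median-of-ratios factors the split was 54 to 66, and after quantile normalization 54 to 68. With the replicate block, 209 genes had an unadjusted p under 0.05, and again 0 an adjusted one. By the exact Wilcoxon test in place of limma, 78 genes were under 0.05 before adjustment and 0 after it. With array weights, which give each sample its own precision, 3181 genes were under 0.05 before adjustment and 0 after it, with a smallest adjusted p of 0.0642. The count of 96 rested on single samples, since it was 220 without HLO replicate 1, 239 without HSO replicate 3, 59 without HLO replicate 2 and 58 without HLO replicate 4. Only without HLO replicate 1 did a gene pass the adjustment, UBE2W, with an adjusted p of 9.75e-05 by limma's test.

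The precision of the comparison was moderate. The standard error of a log2 fold change had a median of 0.322 over the genes, from a spread between samples of a group with a median SD of 0.477 on the log2 scale. The 95% interval of the difference lay within 1 of 0 on the log2 scale for 4527 genes (55.4%), so for those genes a change of that size in the means of these pools lies outside the interval. For the other genes it does not. All fold changes are HLO minus HSO on the log2(FPKM + 1) scale, which understates the change of genes at low FPKM. The median over all tested genes was -0.12, and it moved to -0.014 and -0.0074 under the median-of-ratios and quantile scaling, so medians of gene groups are also given relative to it. Under these scalings the sign of the median itself turned for 11 and 10 of the gene groups, among them the nuclear respiratory chain genes, the cytosolic ribosomal proteins and the subcortical maternal complex.

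A total of 22 genes (0.269%) had both an unadjusted p under 0.05 and an absolute log2 fold change over 1. Of these 10 were higher in HLO and 12 higher in HSO, against 9 and 28 with the replicate block. The total was 71 without HLO replicate 1, 81 without HSO replicate 3 and 13 without HLO replicate 4. All 22 kept an unadjusted p under 0.05 with the replicate block, 20 with median-of-ratios factors, 12 when all 29 samples gave the spread and 8 by the exact Wilcoxon test. The p stayed under 0.05 whichever sample was left out for 7 of them, namely LOC102170446, ALOX5AP, IL18, OR5J2, UBE2W and LOC102180889, all higher in HSO, and HIST2H2AB, higher in HLO. OR5J2 had enough samples over the FPKM limit to be tested in only 5 of the 9 fits. Of the 22, the values of HLO and HSO did not overlap for 4 genes, LOC102170446, ALOX5AP, IL18 and HIST2H2AB. The others of the 22 that are described below were chosen after their values were seen.

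**Figure D2:**
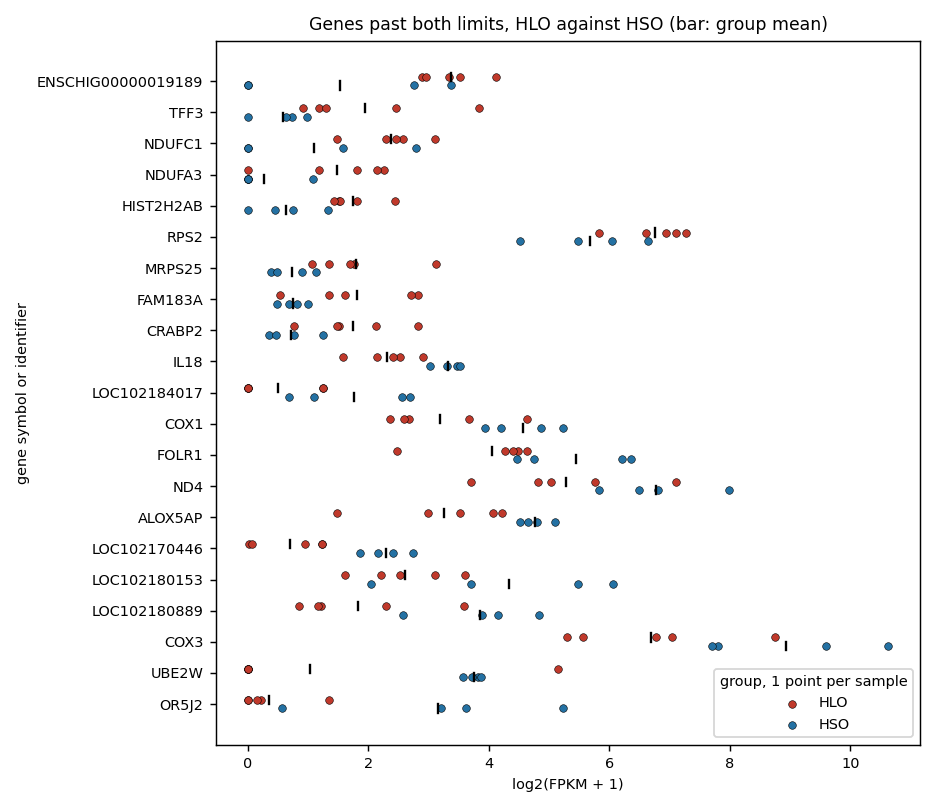
log2(FPKM + 1) of 21 of the 22 genes with an unadjusted p under 0.05 and an absolute log2 fold change over 1, with 1 point per HLO sample (red) and per HSO sample (blue) and a bar at each group mean. The points of the 2 groups are fully apart for LOC102170446, ALOX5AP, IL18 and HIST2H2AB, and in the other 17 genes drawn they overlap.

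The gene with the smallest p was LOC102170446 (ENSCHIG00000020830), annotated as tripartite motif-containing protein 34, a member of a family of ubiquitin ligases of which several act against viruses. It was at 1.34, 0.933, 1.35, 0.013 and 0.0437 FPKM in HLO replicates 1 to 5 and at 2.64, 5.7, 3.46 and 4.28 FPKM in HSO replicates 1, 3, 4 and 5. Every HSO sample was over every HLO sample, and HLO replicates 4 and 5 were close to 0. The mean was 0.736 ± 0.668 FPKM (SD, n = 5) in HLO and 4.02 ± 1.31 FPKM (SD, n = 4) in HSO. The log2 fold change was -1.59 (SE 0.33, 95% interval -2.32 to -0.87), with an unadjusted p of 0.000581 and an adjusted p of 1 by limma's test. The unadjusted p was at most 0.00187 with any sample left out.

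A pair of inflammatory mediators was also higher in HSO without overlap. ALOX5AP (ENSCHIG00000020532), which presents arachidonic acid to 5-lipoxygenase for the synthesis of leukotrienes, was at 17.6, 10.5, 15.7, 1.8 and 6.94 FPKM in HLO and 33.1, 24, 22 and 26.7 FPKM in HSO. HLO replicate 4 was lowest, and the 4 HSO samples lay close together. The log2 fold change was -1.51 (SE 0.52, unadjusted p = 0.0149), and the p was at most 0.0409 with any sample left out. IL18 (ENSCHIG00000020991), a cytokine of the interleukin 1 family, was at 4.78, 1.97, 6.51, 3.39 and 4.31 FPKM in HLO and 10, 7.11, 8.92 and 10.4 FPKM in HSO, with a log2 fold change of -1.02 (SE 0.31, unadjusted p = 0.00733) that was -0.65 between LLO and LSO. Its fold change was -0.87 and -0.84 under the median-of-ratios and quantile scaling, and its unadjusted p was 0.0742 when all 29 samples gave the spread. The sum of the 13 leukocyte and blood cell markers was at or under 1.29 FPKM in all 9 samples, as given above. Which cells the ALOX5AP and IL18 transcripts came from was not tested.

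Several other transcripts were higher in HSO in some but not all samples. OR5J2, an olfactory receptor, was at 0.164, 0.109, 1.53, 0 and 0 FPKM in HLO and 36.3, 8.26, 11.3 and 0.48 FPKM in HSO, where replicate 5 was within the range of HLO. UBE2W, an E2 enzyme that attaches ubiquitin to the amino terminus of proteins, was listed at 0 in HLO replicates 2 to 5, at 34.4 FPKM in HLO replicate 1 and at 13.2, 12.1, 10.9 and 13.6 FPKM in HSO. The p of this gene was 0.0186 with all samples. A second gene of the table carries the symbol UBE2W and had a log2 fold change of -0.46 (unadjusted p = 0.297), so reads may have been divided between them and the value is uncertain. FOLR1, a receptor that takes up folate, was at 23.7, 21.3, 18.2, 4.57 and 20.2 FPKM in HLO and 72.5, 21, 25.7 and 81.3 FPKM in HSO, with a log2 fold change of -1.39 (SE 0.56, unadjusted p = 0.0316). Its p was over 0.05 without HLO replicate 4, HSO replicate 1 or HSO replicate 5, at most 0.0941. A pair of genes annotated as transmembrane protein 45A was also among the 12. LOC102180889 was at 10.9, 1.32, 1.24, 0.805 and 3.91 FPKM in HLO and 16.7, 4.94, 13.7 and 27.3 FPKM in HSO, and LOC102180153 was at 11.1, 3.62, 7.59, 2.05 and 4.78 FPKM in HLO and 43.7, 3.13, 12.1 and 65.9 FPKM in HSO. The groups overlapped in both genes, and the p of LOC102180153, 0.047 with all samples, was over 0.05 in 7 of the 9 fits with a sample left out. LOC102184017, a histone H2B gene, was at 0, 1.37, 1.36, 0 and 0 FPKM in HLO and 4.85, 1.15, 0.611 and 5.42 FPKM in HSO, and its p was over 0.05 in 5 of the 9 fits.

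Of the 10 genes that were higher in HLO, 7 had a mean under 5 FPKM in both groups and 5 were listed at 0 in at least 1 HSO sample. HIST2H2AB (ENSCHIG00000006209), a replication-dependent histone H2A gene, was at 1.83, 1.89, 4.42, 1.69 and 2.49 FPKM in HLO and 1.51, 0, 0.369 and 0.673 FPKM in HSO. Every HLO sample was over every HSO sample, HLO replicate 4 and HSO replicate 1 being closest. The log2 fold change was 1.11 (SE 0.30, unadjusted p = 0.004, at most 0.0145 with any sample left out). CRABP2, which carries retinoic acid to its nuclear receptor, was at 3.34, 1.85, 1.77, 0.703 and 6.08 FPKM in HLO and 0.703, 0.277, 0.377 and 1.37 FPKM in HSO. Its log2 fold change was 1.03 (SE 0.38, unadjusted p = 0.0214), and the p was over 0.05 without HSO replicate 3 or 4, at most 0.0572. TFF3, a secreted trefoil peptide, was at 0.893, 13.2, 1.26, 4.48 and 1.44 FPKM in HLO, where replicate 2 stood highest, and at 0.97, 0, 0.656 and 0.545 FPKM in HSO. FAM183A was at 0.448, 6.06, 1.53, 5.52 and 2.06 FPKM in HLO and 0.752, 1, 0.603 and 0.397 FPKM in HSO. The p of TFF3, 0.0322, was over 0.05 in 4 of the 9 fits, and that of FAM183A, 0.0342, in 5. ENSCHIG00000019189, which has no symbol in the table, was at 6.41, 9.08, 16.4, 10.4 and 6.75 FPKM in HLO and 0, 9.32, 0 and 5.77 FPKM in HSO, with an unadjusted p of 0.0258 that was over 0.05 in 3 of the 9 fits.

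A pair of ribosomal protein genes was also among the 10. RPS2, a protein of the small cytosolic ribosomal subunit, was at 121, 137, 96.3, 153 and 55.5 FPKM in HLO and 65.2, 21.9, 99.2 and 43.8 FPKM in HSO. HLO replicates 3 and 5 lay inside the range of HSO. The log2 fold change was 1.07 (SE 0.47, unadjusted p = 0.0427), with a p over 0.05 in 6 of the 9 fits with a sample left out. Of the 136 tested genes of cytosolic ribosomal proteins, whose copies in the genome often share a symbol, 2 had an unadjusted p under 0.05 and were higher in HLO, RPS2 and a copy of RPL35, and 0 were higher in HSO, while over all genes 1.17% had such a p. With the replicate block 2 were higher in HLO and 2 higher in HSO. The p of the RPL35 copy was 0.0336, 0.0676 with the replicate block, and over 0.05 in 6 of the 9 fits with a sample left out. The median log2 fold change of the 136 genes was -0.024, or 0.10 over that of all genes, and their summed FPKM ranged from 26878 to 56713 in HLO and from 28223 to 47256 in HSO. MRPS25, a protein of the small mitochondrial ribosomal subunit, was at 2.38, 2.22, 1.53, 7.67 and 1.09 FPKM in HLO and 1.17, 0.87, 0.302 and 0.402 FPKM in HSO, with a log2 fold change of 1.07 (SE 0.38, unadjusted p = 0.0183). Without HSO replicate 4 that p was 0.0548. It was the only gene of 69 tested mitochondrial ribosomal proteins with an unadjusted p under 0.05, and the median of the 69 was -0.24. Of 42 translation initiation factors 0 had an unadjusted p under 0.05, and their median was -0.31, or -0.19 relative to all genes.

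Transcripts of the mitochondrial genome showed the largest median difference of the 35 gene groups with at least 5 tested members. All 13 protein-coding genes of the mitochondrial genome were tested, and their log2 fold changes ran from -2.78 (ATP8) to -0.14 (ND3), all on the HSO side. The median was -1.51, or -1.39 relative to all genes, and it was -1.37 and -1.35 under the median-of-ratios and quantile scaling. An unadjusted p under 0.05 was found for 4 of them, COX1, COX3, ND4 and ND4L, against 1.17% of all genes, and for 5 with the replicate block, against 2.59%. The 13 genes are transcribed together from a single genome and are not independent. Without HSO replicate 3 the median was -0.85, and it lay between -1.29 and -2.25 with any other sample left out.

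The spread between samples was wide. COX3 (ENSCHIG00000000023), which codes for a core subunit of cytochrome c oxidase, was at 429.7, 129.9, 109, 46.3 and 38.5 FPKM in HLO replicates 1 to 5 and at 223, 1585, 769.6 and 207 FPKM in HSO replicates 1, 3, 4 and 5. HLO replicate 1 lay inside the range of HSO, and the other HLO samples were under all 4 HSO samples. Its log2 fold change was -2.25 (SE 0.80, 95% interval -4.01 to -0.48, unadjusted p = 0.0175), and without HSO replicate 3 or HSO replicate 4 the p was 0.0535 and 0.0509. COX1 (ENSCHIG00000000016), the catalytic subunit of the same enzyme, was at 23.7, 11.7, 5.35, 4.12 and 5 FPKM in HLO and 14.4, 36.7, 28 and 17.4 FPKM in HSO, with a log2 fold change of -1.38 (SE 0.50, unadjusted p = 0.0201). Its p was likewise over 0.05 without HSO replicate 3 or 4, at most 0.0577. ND4, a subunit of complex I, was at 136, 31.8, 53.5, 12 and 27.1 FPKM in HLO and 89, 252, 112 and 55.6 FPKM in HSO, and its p of 0.0454 was over 0.05 in 7 of the 9 fits with a sample left out. ND4L, its neighbour in the same complex, was at 7.78, 8.82, 8.59, 5.25 and 2.56 FPKM in HLO and 14, 18.7, 9.28 and 8.75 FPKM in HSO, with a p of 0.0414 that was over 0.05 in 4 of the 9 fits. Under the median-of-ratios and the quantile scaling and with all 29 samples, the p was 0.0702, 0.135 and 0.111 for ND4 and 0.165, 0.211 and 0.13 for ND4L, and under the quantile scaling it was 0.0514 for COX1.

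The 13 genes together took 0.389, 0.0813, 0.105, 0.0454 and 0.0396% of the FPKM sum in HLO replicates 1 to 5. In HSO replicates 1, 3, 4 and 5 they took 0.138, 1.37, 0.609 and 0.0948%. HSO replicate 3 was the highest of the 9 samples for all 13 genes, and HLO replicate 1 the highest of HLO for 10 of them. Within numbers, HLO was lower than HSO for 13 of 13 genes in replicate 3, 12 in replicate 4 and 12 in replicate 5, whereas HLO replicate 1 was higher than HSO replicate 1 for 10 of 13. The share was 0.0222 to 0.0894% in HMO, and the HMO mean lay between those of HLO and HSO for 0 of the 13 genes, being lower than both. In LLO it was 0.00266 to 0.141% and in LSO 0.0347 to 0.967%, and the median log2 fold change of LLO minus LSO over the 13 genes was -1.77. In oocytes from medium follicles of low fertility goats (LMO) the share was 0.0867 to 1.1%. Its median was 0.342%, against 0.287% in LSO, so medium follicles were not below small ones there. Replicate 3 had the highest share in HSO, LSO and LMO, but not in HLO, HMO or LLO. The interaction with the fertility group had an unadjusted p under 0.05 for 0 of the 13, against 1.92% of the 9336 genes tested for it. The standard error of this difference was 0.796 for ND4L, 1.47 for COX3 and 3.04 for ATP8. The count of 0 therefore does not show that the 2 contrasts were alike.

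**Figure D3:**
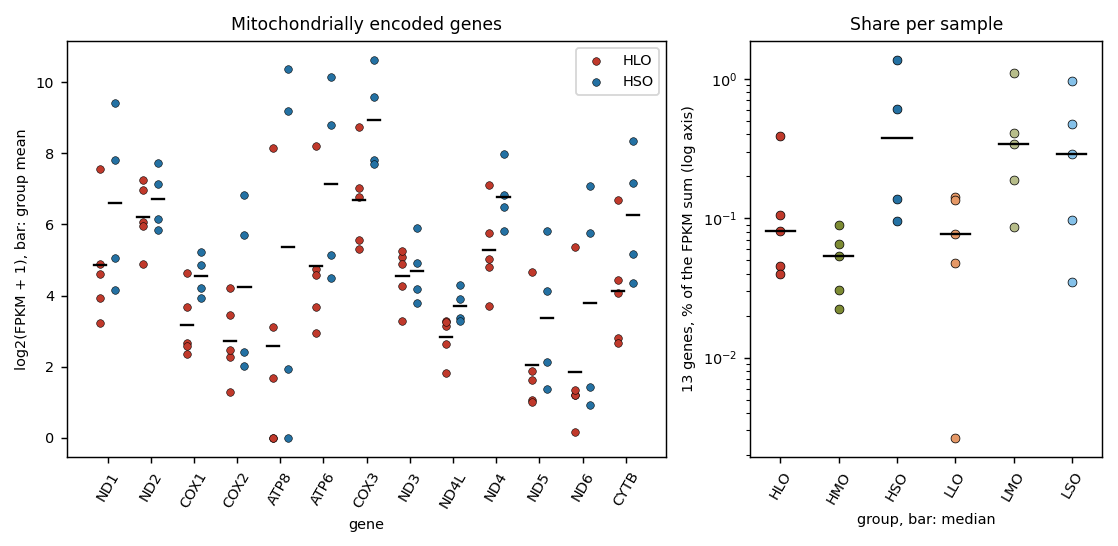
Left, log2(FPKM + 1) of the 13 mitochondrially encoded protein genes with 1 point per HLO sample (red) and HSO sample (blue) and a bar at the group mean; right, the share of the FPKM sum taken by the 13 genes in each sample of 6 oocyte groups, on a log axis, with a bar at the median. The mean of HSO is over that of HLO for all 13 genes, while the points overlap in each of them, and the shares run from 0.0396 to 0.389% in HLO and from 0.0948 to 1.37% in HSO.

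The nuclear genes of the same enzyme complexes had a median close to that of all genes. Of 77 tested nuclear genes for subunits of the respiratory chain or ATP synthase, 2 had an unadjusted p under 0.05 and were higher in HLO. Over all tested genes 1.17% had such a p, with 0.404% higher in HLO. The median log2 fold change of the 77 genes was -0.049, or 0.075 over that of all genes. The abundant complex I subunit NDUFA6 was at 2729.6 ± 974 FPKM (SD, n = 5) in HLO and 2430.1 ± 1269 FPKM (SD, n = 4) in HSO, with a log2 fold change of 0.23 (95% interval -0.63 to 1.09). The 2 genes with an unadjusted p under 0.05, NDUFA3 and NDUFC1, are accessory subunits of complex I whose symbols are carried by several genes of the table, so their values are uncertain. NDUFA3 was at 1.26, 0, 3.76, 3.42 and 2.5 FPKM in HLO and 0, 0, 0 and 1.11 FPKM in HSO (unadjusted p = 0.0219, over 0.05 in 3 of the 9 fits with a sample left out). NDUFC1 was at 4.97, 3.92, 1.79, 4.48 and 7.56 FPKM in HLO and 0, 5.94, 1.99 and 0 FPKM in HSO (unadjusted p = 0.0476, over 0.05 in 7 of the 9 fits). NDUFB6, another complex I subunit, was at 98.4, 111, 133, 126 and 64.7 FPKM in HLO and 153, 171, 139 and 152 FPKM in HSO, without overlap, with an unadjusted p of 0.0782.

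The values of all HLO samples lay over those of all HSO samples for 10 genes (0.122%), and those of all HSO samples over all HLO samples for 27 genes (0.33%). The 10 include 2 genes, PRKX and RNLS, with no HSO sample over 0.5 FPKM. Both were tested only through the group in which they were high. A gene without overlap has an exact two-sided Wilcoxon p of 0.0159. That is the share of genes that would separate in either direction if none differed. The 0.122% and 0.33% together are below that share. The absolute log2 fold change was under 1 for 33 of these 37 genes, and 23 had an unadjusted p under 0.05, PRKX and RNLS among them. Of the 23, 20 kept such a p with the replicate block, 12 with median-of-ratios factors, 11 with quantile normalization and 9 when all 29 samples gave the spread. The counts of 10 and 27 were 47 and 42 without HSO replicate 4, 30 and 137 without HLO replicate 1, 23 and 134 without HSO replicate 3, and 23 and 66 without HLO replicate 5. Leaving out HSO replicate 5 gave 19 and 53 genes, HSO replicate 1 gave 24 and 49, and HLO replicate 3 gave 23 and 43, while those higher in HLO were 17 without HLO replicate 2 and 21 without HLO replicate 4. Leaving out a sample can only add genes without overlap among those still tested. The rise was thus fixed in advance and does not show dependence on a sample. Some of the 37 genes, chosen after their values were seen, had a narrow spread in both groups.

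Some of them have roles in lipid and sugar metabolism. DGAT2 (ENSCHIG00000010320), which makes the last step of triglyceride synthesis, was at 1.67, 1.81, 1.43, 1.69 and 0.599 FPKM in HLO and 2.87, 2.54, 4.84 and 3.12 FPKM in HSO, with a log2 fold change of -0.83 (SE 0.25, unadjusted p = 0.0068, at most 0.0234 with any sample left out). When all 29 samples gave the spread its p was 0.158. Its HMO samples were at 5.03, 4.28, 5.71, 3.06 and 3.84 FPKM. It was the only gene of 18 tested genes of lipid droplets and fatty acid use with an unadjusted p under 0.05, against 1.17% of all genes. Of the 18, 15 had a negative fold change, as had 69.5% of all tested genes. The median of the 18 was -0.41, or -0.28 relative to all genes. The fatty acid carrier FABP3 was at 709 ± 315 FPKM (SD, n = 5) in HLO and 889.6 ± 299 FPKM (SD, n = 4) in HSO, with a 95% interval of the difference of -1.35 to 0.53. HKDC1, a hexokinase relative, was at 3.98, 3.03, 2.36, 4.04 and 2.36 FPKM in HLO and 4.75, 4.89, 6.78 and 4.55 FPKM in HSO (unadjusted p = 0.0344, over 0.05 in 6 of the 9 fits with a sample left out). TKTL1, a transketolase relative, was at 3.15, 2.3, 2.69, 1.45 and 2.56 FPKM in HLO and 3.49, 3.79, 3.7 and 5.76 FPKM in HSO (unadjusted p = 0.0334, over 0.05 in 4 of the 9 fits). Of 26 tested genes of glycolysis, pyruvate and lactate, 0 had an unadjusted p under 0.05, and the median was -0.26. LDHC, the lactate dehydrogenase of germ cells, was at 103 ± 94.2 FPKM (SD, n = 5) in HLO and 143 ± 107 FPKM (SD, n = 4) in HSO, and the interval of its difference, -2.44 to 1.21, was wide.

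Transcription genes were also among them. SNAPC5, a subunit of the complex that starts transcription of small nuclear RNA genes, was at 7.87, 6.82, 7.24, 6.86 and 7.75 FPKM in HLO and 12.9, 15.1, 10.2 and 14.2 FPKM in HSO. The log2 fold change was -0.75 (SE 0.24, unadjusted p = 0.01, at most 0.0341 with any sample left out), and the p was 0.058 and 0.118 under the median-of-ratios and quantile scaling. TBPL2 (ENSCHIG00000026824), the TATA-binding protein relative that replaces the general factor in growing oocytes, was at 11.9, 9.13, 12, 8.89 and 12.5 FPKM in HLO and 13.8, 17.6, 16.8 and 24.8 FPKM in HSO, with a log2 fold change of -0.68 (SE 0.27). Its unadjusted p was 0.0309. It was 0.0751 and 0.141 under the median-of-ratios and the quantile scaling, and over 0.05 in 5 of the 9 fits with a sample left out. It was the only gene of 11 tested oocyte transcription factors with an unadjusted p under 0.05, against 1.17% of all genes. The median of the 11 was 0.0088, or 0.13 over that of all genes. FIGLA, which turns on the zona pellucida genes, was at 7.58, 10.3, 4.19, 9.15 and 2.79 FPKM in HLO and 4.98, 7.65, 7.86 and 4.73 FPKM in HSO, and LHX8 at 32.3 ± 8.15 FPKM (SD, n = 5) in HLO and 32.7 ± 11.8 FPKM (SD, n = 4) in HSO. The groups overlapped in both, with 95% intervals of -0.81 to 0.83 and -0.72 to 0.76.

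FRZB, a secreted Wnt antagonist, was at 7.36, 4.85, 4.81, 4.58 and 4.04 FPKM in HLO and 9.71, 8.03, 9.88 and 8.37 FPKM in HSO, with a log2 fold change of -0.72 (SE 0.25, unadjusted p = 0.0145, and 0.08 under quantile normalization). CHL1, a neural cell adhesion molecule, was at 3.95, 2, 2.74, 2.12 and 2.92 FPKM in HLO and 4.1, 4.07, 5.23 and 5.21 FPKM in HSO, with an unadjusted p of 0.0263 and of 0.0625 with the replicate block. The p was over 0.05 in 4 of the 9 fits with a sample left out. On the other side, LHX1, a LIM homeobox factor, was at 0.759, 1.41, 2.13, 1.61 and 4.29 FPKM in HLO and 0.483, 0.678, 0.744 and 0.276 FPKM in HSO, with a log2 fold change of 0.89 (SE 0.29, unadjusted p = 0.0114, at most 0.0346 with any sample left out). HLO replicate 1 and HSO replicate 4 were almost level. CSTA, the protease inhibitor cystatin A, was at 5.71, 6.04, 7.15, 4.73 and 4.68 FPKM in HLO and 3.52, 2.38, 3.55 and 1.63 FPKM in HSO, with a log2 fold change of 0.84 (SE 0.26, unadjusted p = 0.0081, and 0.17 when all 29 samples gave the spread). PPIH, a cyclophilin of the spliceosome, was at 149, 206, 172, 166 and 196 FPKM in HLO and 102, 104, 147 and 70.2 FPKM in HSO, with a log2 fold change of 0.78 (SE 0.28, unadjusted p = 0.0197) and a p of 0.062 without HSO replicate 5. RNLS, renalase, was at 0.6, 0.751, 0.649, 1.66 and 1.67 FPKM in HLO and 0.209, 0, 0.107 and 0.208 FPKM in HSO, and its p was 0.00148. It exceeded the limit of 0.5 FPKM in all HLO samples and in 0 HSO samples, so it was tested only through the group in which it was high, and it was not tested with the filter at 1 FPKM. PPIH and RNLS share their symbols with another gene of the table and are uncertain.

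Among the factors that the oocyte secretes, 0 of 11 tested genes had an unadjusted p under 0.05. GDF9 was at 368, 102, 131, 95.8 and 494 FPKM in HLO and 387, 160.1, 221 and 974 FPKM in HSO. Replicates 1 and 5 were the highest of both groups, and HSO replicate 5 stood over all others. Its log2 fold change was -0.85 (SE 0.65, 95% interval -2.29 to 0.58, unadjusted p = 0.217), and the unadjusted p was 0.0446 with the replicate block. BMP15, the close relative of GDF9, was at 182, 104, 99.3, 125 and 154 FPKM in HLO and 98.1, 118, 184 and 201 FPKM in HSO, with a log2 fold change of -0.15 (95% interval -0.87 to 0.57). The zona pellucida gene ZP3 was at 1639.7, 533, 508, 679 and 3179 FPKM in HLO and 1274, 551, 825 and 5318 FPKM in HSO, and ZP2 was at 270.4, 152, 155, 153 and 185 FPKM in HLO and 228, 179, 261 and 726 FPKM in HSO. HSO replicate 5 was the highest sample for both, and the intervals of the differences were -2.02 to 1.19 for ZP3 and -1.64 to 0.18 for ZP2. The median of the 11 genes was -0.27, or -0.15 relative to all genes. Of 19 tested genes of receptors, SMADs and targets of the same ligand family, SMAD3, a signal transducer of activin and TGF-beta, was the only gene with an unadjusted p under 0.05, against 1.17% of all genes. It was at 0.465, 0.544, 0.182, 0.272 and 0.49 FPKM in HLO and 0.988, 0.513, 0.557 and 1.7 FPKM in HSO, with a log2 fold change of -0.45 (SE 0.19, unadjusted p = 0.0401), and the p was over 0.05 in 4 of the 9 fits with a sample left out. ID3, a target of BMP signals, was at 16.9, 22.2, 22.7, 49.1 and 19 FPKM in HLO and 12.8, 23.9, 29.5 and 11.5 FPKM in HSO, and HES1, a target of Notch, at 35, 65.3, 54.8, 70.9 and 36.2 FPKM and 35.1, 63.8, 68.9 and 16.8 FPKM, with overlap in both.

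Some genes of meiosis were among the abundant transcripts of both groups, and others were low. CKS1B and CKS2, small subunits that bind the cyclin-dependent kinases, were at 4444 ± 1681 and 4254 ± 567 FPKM (SD, n = 5) in HLO and at 4752 ± 702 and 4561 ± 522 FPKM (SD, n = 4) in HSO. CKS2 was among the better determined of the abundant genes, with a 95% interval of -0.48 to 0.27 for its log2 fold change. AURKA, a kinase of the spindle poles, was at 1183, 1366, 1458, 1523 and 1637 FPKM in HLO and 1010.2, 1432, 1014 and 1667 FPKM in HSO (95% interval -0.31 to 0.69). CCNB2, the cyclin B that holds CDK1 ready in the arrested oocyte, was at 1060, 116, 147, 118 and 1498 FPKM in HLO and 788, 120.1, 258 and 1435 FPKM in HSO, so replicates 1 and 5 were several times over the others in both groups, and its interval of -2.60 to 1.71 was wide. MOS, the kinase of metaphase II arrest, was at 66.4, 40.5, 5.68, 22.6 and 1.73 FPKM in HLO and 57.3, 2.44, 16.9 and 3.58 FPKM in HSO, and WEE2, which restrains CDK1, at 80.9, 18.8, 37.9, 12 and 131 FPKM and 32.6, 12.4, 19.8 and 104 FPKM. An unadjusted p under 0.05 was found for 0 of 32 tested genes of meiotic resumption and cell cycle (median 0.046), 0 of 34 of the spindle checkpoint and kinases (median -0.31) and 0 of 24 of meiotic cohesin and recombination (median -0.18). Such a p was found for 1.17% of all tested genes, whose median was -0.12. At that share, a count of 0 says little about groups of these sizes.

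Genes of the stores of maternal RNA and protein also ranged widely in level. BTG4, the adaptor that brings the CCR4-NOT deadenylase to maternal transcripts, was at 2023, 499, 813, 285 and 1943 FPKM in HLO and 2032, 769, 943 and 1869 FPKM in HSO, with HLO replicate 4 lowest and a 95% interval of -1.91 to 0.73. ZAR1, which binds stored transcripts, was at 43.8, 88.1, 86.6, 123 and 27.2 FPKM in HLO and 44.6, 93.5, 94.9 and 29.8 FPKM in HSO. An unadjusted p under 0.05 was found for 0 of 24 tested genes of maternal mRNA storage and translation (median 0.025), 0 of 26 of deadenylation and decay (median -0.061), 0 of 7 of the subcortical maternal complex (median -0.13) and 0 of 13 PIWI and piRNA factors (median -0.41, or -0.28 relative to all genes). As 1.17% of all tested genes had such a p, the counts of 0 in this paragraph say little about groups of these sizes. GTSF1, a zinc finger partner of PIWI proteins, was at 1284, 1076, 1115, 571 and 655 FPKM in HLO and 1482, 1104, 1042 and 1163 FPKM in HSO, and its symbol is carried by a further gene. Of 24 tested genes of DNA methylation and chromatin 0 had an unadjusted p under 0.05 (median -0.028), and the values of 1 of them, TRIM28, a corepressor that guards imprinted methylation, did not overlap (higher in HLO, as for 0.122% of all genes). It was at 3.73, 2.76, 2.81, 2.66 and 2.68 FPKM in HLO and 2.45, 1.54, 2.45 and 2.24 FPKM in HSO, with an unadjusted p of 0.158. Outside the groups, SPIN1, a histone reader of the oocyte, was at 1, 0.46, 0.301, 0.372 and 0 FPKM in HLO and 0.816, 1.32, 1.27 and 1.24 FPKM in HSO, with a log2 fold change of -0.63 (SE 0.20, unadjusted p = 0.0094, at most 0.0244 with any sample left out and 0.0657 when all 29 samples gave the spread). It exceeded 0.5 FPKM in 1 HLO sample, and a further gene carries its symbol. TST, the thiosulfate sulfurtransferase, was at 0.801, 1.59, 0.758, 1.34 and 0.916 FPKM in HLO and 0.945, 0, 0.438 and 0.332 FPKM in HSO (log2 fold change 0.57, SE 0.21, unadjusted p = 0.0222), with a p of 0.0784 without HSO replicate 3.

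**Figure D4:**
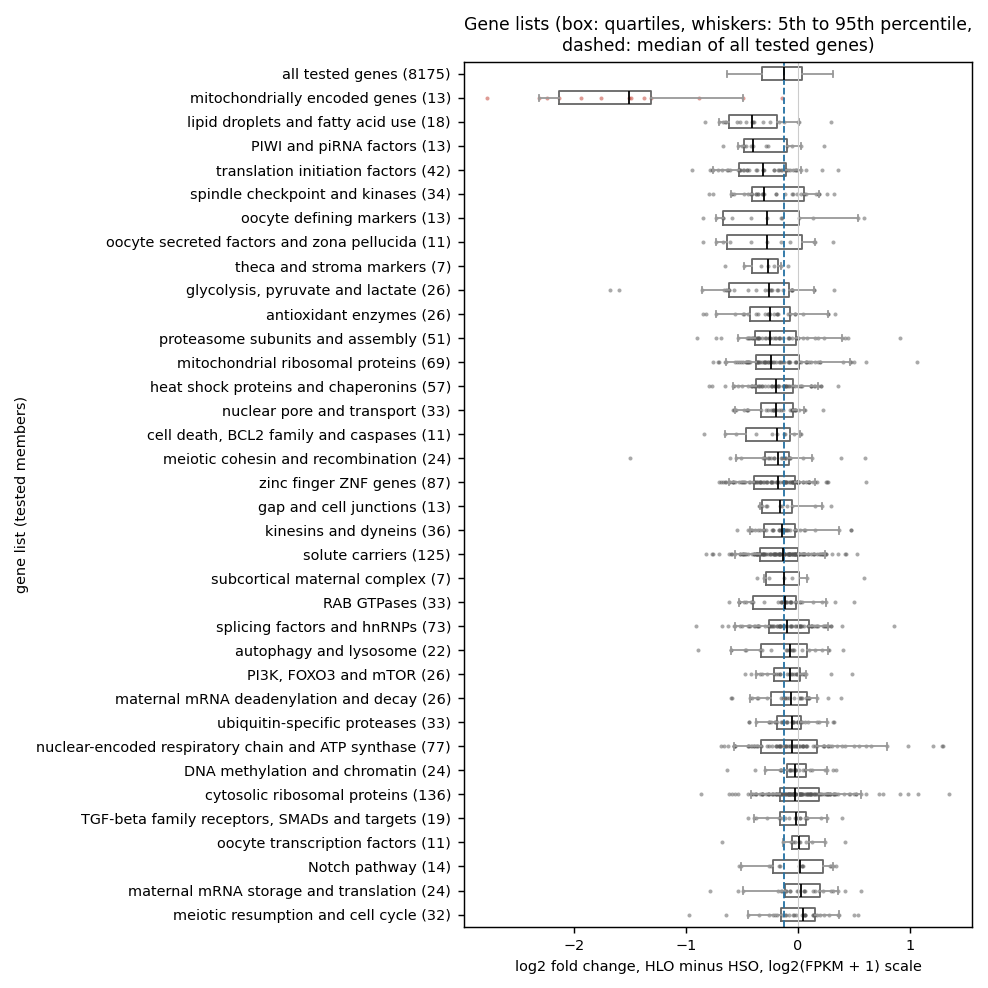
log2 fold change of HLO minus HSO on the log2(FPKM + 1) scale for the tested genes of the 35 gene groups with at least 5 tested members, 1 point per gene, with quartile boxes and whiskers to the 5th and 95th percentile, and with the number of tested genes in parentheses. The medians lie between -0.41 and 0.046 except that of the 13 mitochondrially encoded genes at -1.51, and the dashed line marks the median of all 8175 genes at -0.12.

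Further gene groups, of housekeeping and of other roles, had medians from -0.13 (antioxidant enzymes) to 0.14 (Notch pathway) relative to that of all genes. Over all tested genes 1.17% had an unadjusted p under 0.05. Among 51 tested proteasome genes, PSMG4, a chaperone of proteasome assembly, was the only gene with an unadjusted p under 0.05 (0.0478, over 0.05 in 8 of the 9 fits with a sample left out). It was at 10.3, 9.6, 6.69, 9.21 and 6.89 FPKM in HLO and 5.42, 2.6, 9.76 and 1.52 FPKM in HSO. Among 125 solute carriers the only such gene was the sugar transporter SLC50A1 (log2 fold change -0.77, unadjusted p = 0.0232), over 0.05 without HLO replicate 4, HSO replicate 1 or HSO replicate 5. Among 87 genes named ZNF it was ZNF596, whose symbol a further gene carries (log2 fold change -0.67, unadjusted p = 0.0267), over 0.05 without HLO replicate 3, HLO replicate 4 or HSO replicate 5. There was 0 with an unadjusted p under 0.05 among 73 splicing factors and hnRNPs, 57 heat shock proteins and chaperonins, 36 kinesins and dyneins, 33 each of nuclear pore and transport genes, RAB GTPases and ubiquitin-specific proteases, 26 each of antioxidant enzymes and of the PI3K, FOXO3 and mTOR genes, 22 of autophagy and lysosome, 14 of the Notch pathway, 13 of cell junctions and 11 of cell death. The highest level among the genes named here was that of DYNLL1, a dynein light chain with a further gene under its symbol, at 10402 ± 4003 FPKM (SD, n = 5) in HLO and 11053 ± 3381 FPKM (SD, n = 4) in HSO. With the replicate block, 1 or 2 genes had an unadjusted p under 0.05 in 11 of the 25 groups that had none without it, and the solute carriers had 3, all higher in HSO. In all, 21 of the 35 groups had a median under that of all genes.

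The medium follicles did not place HMO between the other stages in general. The HMO mean lay between the means of HLO and HSO for 2499 of the 8175 genes (30.6%) and for 14 of the 22 genes past both limits. ALOX5AP was at 50.4, 15.6, 72.6, 55.5 and 41.8 FPKM in HMO, mostly over HSO, and LOC102170446 at 0.806, 0.0465, 1.09, 0.013 and 0 FPKM, under all HSO samples. IL18 was at 9.29, 2.75, 4, 3.49 and 4.02 FPKM and HIST2H2AB at 1.88, 2.52, 0, 1.74 and 6.87 FPKM, which spanned both groups. OR5J2 ran from 0.161 to 68.6 FPKM in HMO, and UBE2W from 0 to 35.8 FPKM.

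In low fertility goats the contrast of large with small follicles was measured in other samples. The sign of LLO minus LSO was that of HLO minus HSO for 48.1% of the 8175 genes, for 13 of the 22 genes past both limits and for 27 of the 37 genes without overlap. The correlation of the 2 fold changes across the 8175 genes, which are not independent of each other, was -0.110 (Pearson's r, given as a description). The difference of the 2 contrasts was tested as an interaction in 9336 genes. By limma's test 179 genes (1.92%) had an unadjusted p under 0.05, and 0 (0%) an adjusted p under 0.05, the smallest being 0.971. The 1.92% is likewise below the share of 0.05 that the limit lets through when no gene differs. The fold change was higher in the high fertility group for 134 and lower for 45 of the 179, against 186 and 105 with median-of-ratios factors, 142 and 164 with quantile normalization and 272 and 331 with array weights. With the replicate block there were 440 such genes, 668 without LLO replicate 4, 451 without LLO replicate 3, 296 without HLO replicate 5 and 278 without LSO replicate 4. There were 88 without LLO replicate 5, 96 without HSO replicate 5, 108 without HLO replicate 4, 114 without LSO replicate 2 and 117 without HSO replicate 1.

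Of the genes named above by their p and lack of overlap, LOC102170446 had the smallest interaction p. It was at 0.263, 0, 0, 0.0139 and 5.04 FPKM in LLO replicates 1 to 5 and at 0, 0, 0.0415, 0.0244 and 0.0562 FPKM in LSO, so that the LLO mean rested on replicate 5 and all LSO samples were close to 0. Its log2 fold change was 0.56 in low and -1.59 in high fertility, a difference of -2.15 (SE 0.58, unadjusted p = 0.00145). For ALOX5AP, IL18 and HIST2H2AB the sign was the same in low fertility (-0.84, -0.65 and 0.21), with interaction p-values of 0.438, 0.649 and 0.163. For IL18 the mean FPKM went the other way, 4.06 in LLO and 3.93 in LSO. Its LLO samples ran from 0.129 to 15.4 FPKM and its LSO samples from 1.12 to 6.17 FPKM. For COX3 the log2 fold changes were -2.25 in high and -2.07 in low fertility, a difference of -0.17 (SE 1.47). MRPS25 and RPS2 were lower in LLO than in LSO, by log2 fold changes of -0.51 and -0.72, and their interaction p-values were 0.00901 and 0.0376.

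**Figure D5:**
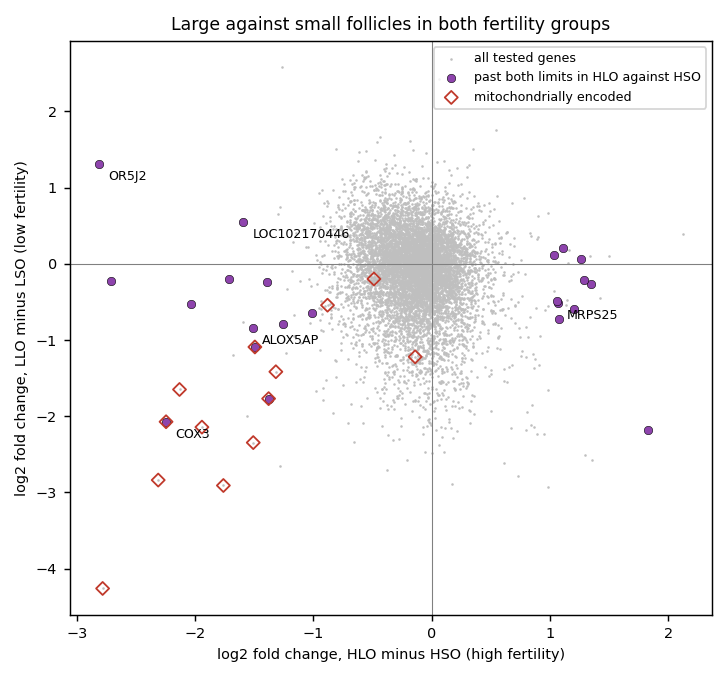
log2 fold change of large against small follicles in high fertility goats (HLO minus HSO, x axis) and in low fertility goats (LLO minus LSO, y axis), on the log2(FPKM + 1) scale, with 1 point per tested gene (grey), the 22 genes past both limits in purple and the 13 mitochondrially encoded genes as red diamonds. All 13 diamonds lie at negative values on both axes, while the grey cloud has no common direction (Pearson's r = -0.110 across 8175 genes).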

How the data were processed

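RNA of pooled goat oocytes was enriched by oligo(dT), copied to cDNA and sequenced (Illumina HiSeq). Reads that matched the goat genome at a single place with few mismatches were kept by the authors, who removed duplicates with picard and deposited FPKM values per gene and sample, from Cufflinks 2.2.1 with Ensembl genes. The aligner version and genome build are not given in the sources used here. Each column was matched to a sample through its name. There was 1 column of values without a matching sample, named as HSO number 2, which was not used here. FPKM are not counts, and low values showed no common step from which reads could be recovered. A symbol is carried by more than 1 gene for 3738 of the 21343 genes, so FPKM of those named may be divided between copies and are uncertain.

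Genes over 0.5 FPKM in at least 4 of the 9 samples were tested on log2(FPKM + 1) with limma 3.58.1 in R 4.3.3 (moderated test with trend, two-sided, Benjamini-Hochberg adjustment over all tested genes). The interaction used HLO, HSO, LLO and LSO samples. Scripts were tested on simulated data. Summaries per sample used exact permutation tests. Tables were handled in Python 3.11.15 (pandas 2.3.3, numpy 2.4.6 and scipy 1.17.1) and drawn with matplotlib 3.10.9. No samples held identical values.

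Same-numbered HLO and HSO samples correlated in their deviations from the group means in all 4 pairs, from 0.434 to 0.713, and the number was used as a block in an alternative fit. Some unlike numbers correlated as closely, such as HLO replicate 1 with HSO replicate 5 (0.561). The correlations therefore do not establish a pairing. The labels do not say what a number marks.

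The comparison, its members and the 39 gene groups were chosen with earlier results of these data known, and some groups were narrowed after a first look to drop kinases and assembly factors that only share a name. Genes were named by rule if they passed the adjustment (none did), or if the groups did not overlap, the unadjusted p was under 0.05 and the absolute log2 fold change over 1. In each group, up to 2 genes per direction with the smallest p under 0.05 and the 2 most abundant were named. The values of 1 gene past both limits are not reported here. Genes of well-known role in oocytes were added, and other genes as stated.

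Alternatives were pseudocounts of 0.1 and 0.5, no filter, a filter at 1 FPKM, array weights, scaling by median-of-ratios factors or quantiles, the exact Wilcoxon test, a fit of all 29 samples, the replicate block and each sample left out. The block as a random effect was added after seeing the data.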

Additional observations from a re-analysis of the deposited data

Results flagged for a closer look

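In 12 of 232 groups of samples examined, over 110 named genes, the highest or lowest sample stood apart by a gap that took up most of the range of its group. Chance alone flags about 1 in 20 groups. In HLO the highest sample stood apart for OR5J2 (replicate 3, gap 0.837 of the range), UBE2W (replicate 1, gap 1 of the range, the other samples being listed at 0), ND6 (replicate 1, 0.773), ND5 (replicate 1, 0.764) and ID3 (replicate 4, 0.725). The lowest HLO sample stood apart for FOLR1 (replicate 4, 0.831) and DGAT2 (replicate 5, 0.742). In HSO the lowest sample stood apart for FABP5 (replicate 3, 0.863), DIABLO (replicate 3, 0.961), OOEP (replicate 3, 0.884) and STAR (replicate 1, 0.884). The highest HSO sample stood apart for NDUFA3 (replicate 5, gap 1 of the range). OOEP, a member of the subcortical maternal complex, was at 140.2, 7.55, 101 and 107 FPKM in HSO replicates 1, 3, 4 and 5 and at 59.8 to 109 FPKM in HLO.

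For 13 of the named genes in this check, the difference between large and small follicles was itself different between the high and the low fertility group at an unadjusted p under 0.05, and none passed the adjustment over 9336 genes. Some genes without overlap that were not in the check also had such a p by limma's test. It was 0.000494 for PRKX, 0.0221 for PPP1R17 and 0.0495 for CIB2. PRKX was under 0.5 FPKM in every HSO sample, so it was tested only through the group in which it was high. The unadjusted interaction p by limma's test was 0.0011 for ENSCHIG00000019189, 0.00145 for LOC102170446, 0.00437 for PSMG4, 0.00833 for FAM183A, 0.00901 for MRPS25, 0.0103 for NDUFA3, 0.0123 for OR5J2 and 0.0153 for RPL35. It was 0.0186 for TFF3, 0.0314 for HES1, 0.0331 for ZNF596, 0.0376 for RPS2 and 0.0418 for MGP. ENSCHIG00000019189 was higher in HLO than in HSO (log2 fold change 1.83) and lower in LLO than in LSO (-2.18), with LLO samples at 0 to 3.7 FPKM. HES1 had log2 fold changes of 0.31 in high and -1.91 in low fertility, and MGP, an inhibitor of calcification, of -0.65 and 0.84.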

How the results depend on the processing

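None of the 49 named genes with an unadjusted p under 0.05 turned its direction under an alternative, and of their tests 737 kept their side of the threshold under an alternative and 234 lost it. The 49 include genes without overlap that are not described one by one above. The count of genes at an unadjusted p under 0.05, 96, was 53 when all 29 samples gave the spread, 3181 with array weights (smallest adjusted p 0.0642), 318 with no filter, 209 with the replicate block and 312 with the block as a random effect, and it ran from 58 to 239 with a sample left out. The counts past both limits, 10 and 12, were 33 and 1069 with array weights, 3 and 5 by the exact Wilcoxon test, and 26 and 35 at a pseudocount of 0.1. Those higher in HSO were 7 with all 29 samples, 20 at a pseudocount of 0.5, 28 with the replicate block and 24 with it as a random effect. With a sample left out they ran from 4 to 13 in HLO and from 8 to 72 in HSO. The count after adjustment was 0 under all alternatives but 1, without HLO replicate 1. The counts without overlap, 10 and 27, were 19 in HLO with median-of-ratios factors, 20 with quantile normalization and 31 and 65 with no filter, and ran from 17 to 47 and from 36 to 137 with a sample left out. Leaving out a sample can only add to the counts without overlap among the genes still tested. The interaction count, 179, was 603 with array weights, 291 with median-of-ratios factors, 306 with quantile normalization and 440 with the replicate block, and ran from 88 to 668 with a sample left out. Of the medians of gene groups, 12 moved beyond their spread and 688 did not, that of the oocyte markers (-0.27) to -0.66 with array weights, -0.12 and -0.11 under the scalings, -0.19 with the replicate block and -0.18 to -0.43 with a sample left out, and that of theca and stroma markers to -0.62 with array weights. The balance of directions did turn: the genes under 0.05 before adjustment were 38 higher in HLO and 35 higher in HSO without HSO replicate 4, those past both limits were 13 and 12 under quantile normalization, and the interaction was lower in high fertility for more genes under quantile normalization (142 higher, 164 lower) and with array weights (272 and 331). The medians of 11 gene groups had the other sign with median-of-ratios factors, 10 with quantile normalization and 4 with the replicate block, and so did the fold changes of 11, 9 and 9 named genes, all with an unadjusted p of at least 0.05. With the replicate block 4 of the 49 named genes lost an unadjusted p under 0.05 (CHL1, RPL35, ZFP1 and LOC102175701), and 5 other named genes gained one (GDF9, CYTB, GAPDH, TSTD3 and MGP). The causes of these shifts were not tested. The unknown depth limits all genes at low FPKM.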
